A study of Rattus norvegicus with 6 samples.

Results

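The 10 genes described here encode the machinery that loads peptides onto major histocompatibility complex (MHC) class II molecules in the rat, and all 10 were found by symbol among 21028 gene models. RNA from the sciatic nerve of 6 wild-type female rats was sequenced after repair of a nerve defect with a tubular conduit. The 3 rats of the PLLARS_US group received the PLLARS conduit together with ultrasound, and the 3 rats of the PCL group received the PCL conduit with no ultrasound. The series title describes a biodegradable piezoelectric device made with Rochelle salt, that is, one that turns mechanical vibration into electrical charge. Conduit and ultrasound were given together, so their effects cannot be told apart, and the age and strain of the rats and the time after surgery are not given in the sources used here. Replicates are separate libraries, taken as 1 per rat.

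MHC class II molecules display peptides from engulfed material to CD4 T cells. Each is a pair of an alpha and a beta chain, which in the rat come from the RT1-D locus (RT1-Da and RT1-Db1) and the RT1-B locus (RT1-Ba and RT1-Bb). The invariant chain, encoded by Cd74, fills the groove until the molecule reaches an acidic compartment, where RT1-DM (RT1-DMa and RT1-DMb) exchanges the last fragment of the invariant chain for a peptide and RT1-DO (RT1-DOa and RT1-DOb) restrains RT1-DM. Ciita, the class II transactivator, binds no DNA itself and is recruited by factors that sit on paired promoter elements called the X and Y boxes. In injured nerve, macrophages and other antigen-presenting cells are the best known carriers of these molecules.

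The authors' positions, for which the processing notes leave the rat genome build unclear, put 8 of the genes on chromosome 20 between 3889370 (start of RT1-DOa) and 4132616 (end of RT1-Da). Cd74 occupied 56071478 to 56080849 of chromosome 18 (plus strand), and Ciita 5213350 to 5260608 of chromosome 10 (minus strand). No other gene model in the table overlapped the span of any of the 10. RefSeq windows on the build GRCr8, from 250 bases before to 50 bases after the annotated start, were at hand for 8 of the 10, the exceptions being Ciita and RT1-DMb. The stretches below are shown for letters that match the X and Y boxes, the elements through which the class II transactivator is recruited. Both matches stand in 5 of the 8 stretches. Capitals mark GCAAC, the core of the X box, and TGATTGG, the Y box, each read 5′ to 3′ on the strand of the gene.
RT1-Da, chr20:4515321-4515382, plus strand: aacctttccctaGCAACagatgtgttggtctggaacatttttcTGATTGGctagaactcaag
RT1-Db1, chr20:4560226-4560286, minus strand: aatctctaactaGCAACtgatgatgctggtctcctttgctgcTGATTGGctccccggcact
RT1-Ba, chr20:4576969-4577030, plus strand: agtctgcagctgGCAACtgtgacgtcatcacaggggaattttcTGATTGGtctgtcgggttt
RT1-Bb, chr20:4604163-4604227, minus strand: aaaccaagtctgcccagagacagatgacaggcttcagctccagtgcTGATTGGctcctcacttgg
RT1-DMa, chr20:4712383-4712447, minus strand: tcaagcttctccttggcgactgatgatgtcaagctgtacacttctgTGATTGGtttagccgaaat
RT1-DOa, chr20:4758514-4758575, minus strand: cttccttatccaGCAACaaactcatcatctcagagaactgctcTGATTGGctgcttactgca
RT1-DOb, chr20:4627590-4627648, minus strand: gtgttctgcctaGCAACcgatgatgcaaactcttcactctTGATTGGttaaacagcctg
Cd74, chr18:56527124-56527193, plus strand: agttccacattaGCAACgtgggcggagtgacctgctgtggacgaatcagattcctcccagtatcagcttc

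The Y box letters stood in 7 of the 8 windows, all on the strand of the gene, and in 7.05% of 33365 distinct promoter windows on either strand. GCAAC stood in 6 of the 8 windows and in 35.1% of all windows on either strand. In 5 genes (RT1-Da, RT1-Db1, RT1-Ba, RT1-DOa and RT1-DOb) GCAAC was followed by TGATTGG on the same strand with 28 to 31 bases between their first letters. Of all windows, 0.0539% held that order on the strand of the gene at a distance of 25 to 40 bases. The letters and the range of distances were chosen after these windows had been read. Cd74 held GCAAC without the Y box letters, and RT1-Bb and RT1-DMa held the Y box letters without GCAAC. The interferon-linked patterns GAAANNGAAA and TTCNNNGAA, searched on both strands, were in 0 of the 8 windows and in 3.92% and 8.88% of all windows. A match of letters is a description of the window and not a measured binding site.

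Class II transcripts were abundant in every library, and neither group stood apart for 9 of the 10 genes. Values are FPKM, fragment numbers scaled by gene length and by library depth, so that levels of different genes can be set side by side. The 10 genes together made up 0.188% to 0.489% of the summed FPKM of a library in the PLLARS_US group and 0.290% to 0.319% in the PCL group. Cd74 alone supplied 58.1% to 66.3% of that class II sum over the 6 libraries and ranked 51 by mean FPKM in the whole table. RT1-DMb, the beta chain of the peptide exchanger, was the gene whose groups did not overlap, with all PLLARS_US values below all PCL values.

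Cd74 had 923, 1475 and 628 FPKM in PLLARS_US replicates 1 to 3, against 999, 962 and 1010 FPKM in PCL replicates 1 to 3. The PCL libraries lay close together, inside the wide range of the PLLARS_US libraries. The mean was 1009 ± 430 FPKM in the PLLARS_US group and 990 ± 24.95 FPKM in the PCL group (SD, n = 3 each). On the scale of log2(FPKM + 1), used for all differences here, Cd74 differed by -0.06 (SE 0.33, 95% interval -0.85 to 0.73; PLLARS_US minus PCL), with a limma adjusted p of 0.994.

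RT1-Da, the alpha chain of the RT1-D molecule, had 236, 424 and 171 FPKM in PLLARS_US replicates 1 to 3, against 293, 259 and 265 FPKM in PCL replicates 1 to 3. It followed Cd74 closely across the libraries: the ratio of Cd74 to RT1-Da was 3.48 to 3.90 in the PLLARS_US libraries and 3.41 to 3.81 in the PCL libraries. RT1-Da differed by -0.08 on the log2 scale (SE 0.33, 95% interval -0.89 to 0.73), well inside its spread. Its partner RT1-Db1 had 73.4, 144 and 60.9 FPKM in the PLLARS_US libraries, against 96.7, 127 and 86.4 FPKM in the PCL libraries. The groups overlapped, and the log2 difference of RT1-Db1 was -0.24 (SE 0.34, 95% interval -1.08 to 0.60). RT1-Db2, a near copy of RT1-Db1, was listed at 0.042 to 0.21 FPKM in the PLLARS_US libraries and 0 to 0.18 FPKM in the PCL libraries. How reads shared by such copies were assigned was not tested.

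The RT1-B pair varied more than the RT1-D pair. RT1-Ba, its alpha chain, had 134, 302 and 55.4 FPKM in PLLARS_US replicates 1 to 3, against 173, 35.8 and 164 FPKM in PCL replicates 1 to 3. PLLARS_US replicate 3 and PCL replicate 2 were the low libraries, one in each group, and the highest value was 8.45 times the lowest. RT1-Bb, its beta chain, had 75.3, 169 and 36.7 FPKM in the PLLARS_US libraries, against 118, 44.8 and 100.2 FPKM in the PCL libraries, and was low in the same libraries. The log2 differences were 0.37 (SE 0.83, 95% interval -1.64 to 2.39) for RT1-Ba and -0.06 (SE 0.62, 95% interval -1.57 to 1.45) for RT1-Bb. The interval of RT1-Ba was the widest of the 10.

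**Figure D1:**
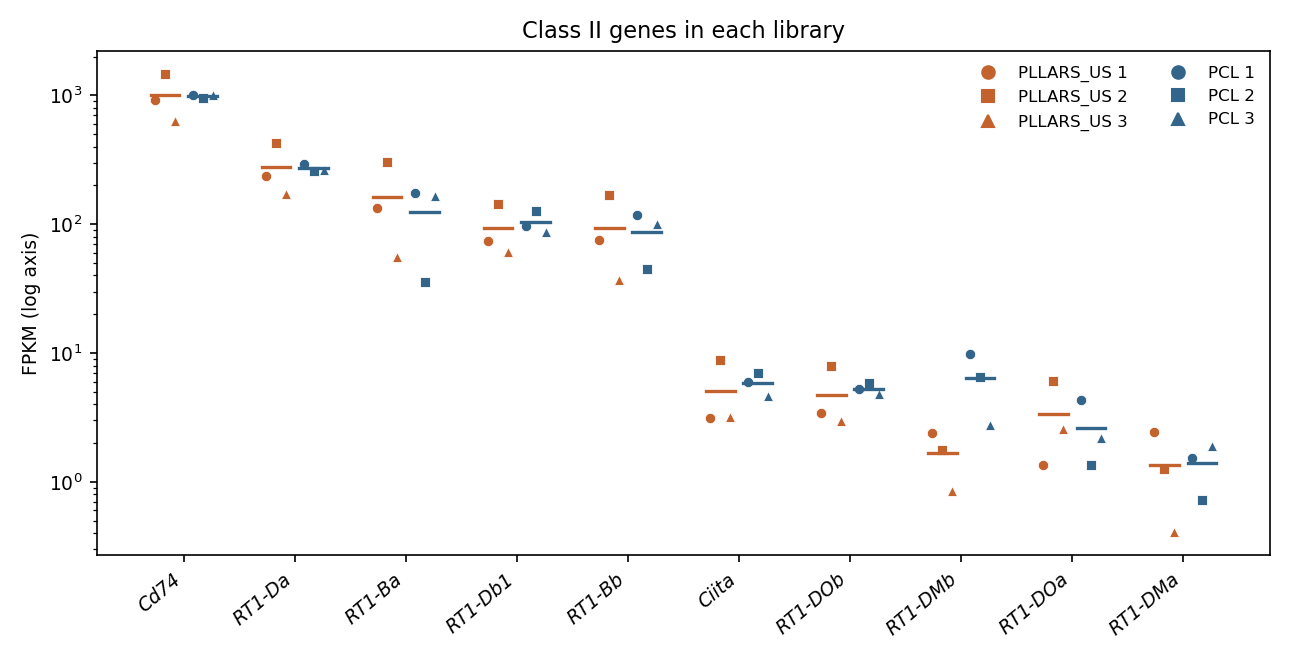
FPKM on a log axis for the 10 class II genes, with 1 point per library (circle, square and triangle for replicates 1, 2 and 3), PLLARS_US left of PCL and a bar at each group mean. Cd74, RT1-Da, RT1-Ba, RT1-Db1 and RT1-Bb lie at 35.8 FPKM or more in every library, the other 5 genes lie at 9.85 FPKM or less, and RT1-DMb is the gene whose groups do not overlap.

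Within single libraries the 2 isotypes were not in a fixed proportion. The ratio of RT1-Da to RT1-Ba was 1.77, 1.40 and 3.08 in PLLARS_US replicates 1 to 3, against 1.69, 7.25 and 1.61 in PCL replicates 1 to 3. PCL replicate 2 thus held RT1-Da at the level of the other PCL libraries but RT1-Ba far below them, and its Cd74 was at 962 FPKM. The mean level of the RT1-D pair minus that of the RT1-B pair, in log2(FPKM + 1), was 0.56 ± 0.54 in the PLLARS_US group and 0.88 ± 1.11 in the PCL group (SD, n = 3 each). A two-sided exact permutation test gave p = 0.8 for that balance, and 3 against 3 libraries cannot give less than 0.1. The difference of -0.32 rested on PCL replicate 2, without which it was 0.32. The ratio of RT1-Ba to RT1-Bb was 0.798 in PCL replicate 2 and 1.46 to 1.79 in the other 5 libraries. The ratio of RT1-Da to RT1-Db1 was also lowest in PCL replicate 2, at 2.04, against 2.80 to 3.22 in the other 5 libraries. RT1 haplotypes, which differ in sequence between rat strains, are not given in the sources used here, and how the authors' alignment treated such differences was not tested.

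**Figure D2:**
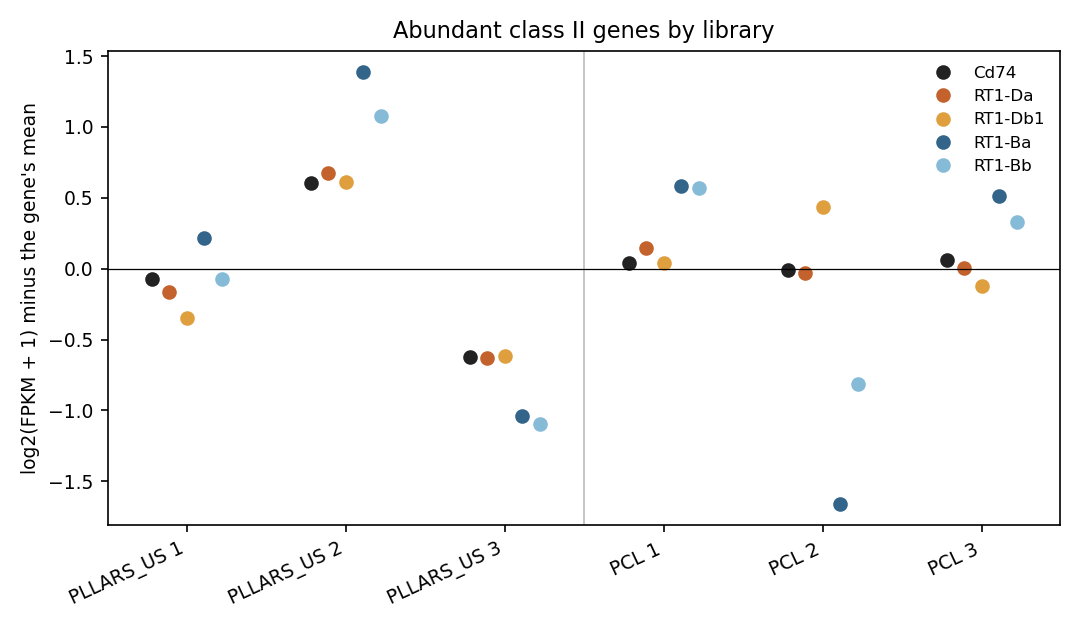
log2(FPKM + 1) of the 5 abundant class II genes in each library after subtracting the mean of the gene over the 6 libraries, PLLARS_US left of PCL. All 5 genes are highest in PLLARS_US replicate 2, and in PCL replicate 2 RT1-Ba (35.8 FPKM) and RT1-Bb (44.8 FPKM) lie far below their means while Cd74 (962 FPKM) and RT1-Da (259 FPKM) do not.

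Ciita had 3.11, 8.88 and 3.18 FPKM in PLLARS_US replicates 1 to 3, against 5.99999, 7.02 and 4.61 FPKM in PCL replicates 1 to 3. PLLARS_US replicate 2 held the highest value and the other PLLARS_US libraries the lowest ones, so the PCL values lay between them. The log2 difference of Ciita was -0.30 (SE 0.38, 95% interval -1.22 to 0.63), with a limma adjusted p of 0.944. The level of Ciita relative to the RT1-D pair, in log2(FPKM + 1), was -4.76 ± 0.22 in the PLLARS_US group and -4.62 ± 0.13 in the PCL group (SD, n = 3 each; two-sided exact permutation p = 0.4). The level of Cd74 relative to the RT1-D pair was 2.66 ± 0.12 in the PLLARS_US group and 2.56 ± 0.17 in the PCL group (two-sided exact permutation p = 0.4).

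RT1-DMb had 2.39, 1.77 and 0.844 FPKM in PLLARS_US replicates 1 to 3, against 9.85, 6.53 and 2.75 FPKM in PCL replicates 1 to 3. The highest PLLARS_US value lay just under the lowest PCL value, and the PCL libraries were spread widely among themselves. The mean was 1.67 ± 0.78 FPKM in the PLLARS_US group and 6.38 ± 3.55 FPKM in the PCL group (SD, n = 3 each). The log2 difference was -1.38 (SE 0.44, 95% interval -2.46 to -0.31), with a limma p of 0.0198 before adjustment. RT1-DMb did not pass over all genes tested, with a limma adjusted p of 0.593, and 5.01% of the tested genes were lower at an unadjusted p under 0.05. Its unadjusted p was 0.0624, 0.0587 and 0.0603 without PLLARS_US replicate 3, PCL replicate 1 and PCL replicate 2 in turn, and its log2 difference was -1.999 to -1.04 over all sets of left-out libraries.

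RT1-DMa, which pairs with RT1-DMb, did not show that order. It had 2.43, 1.25 and 0.405 FPKM in PLLARS_US replicates 1 to 3, against 1.54, 0.725 and 1.90 FPKM in PCL replicates 1 to 3, and the groups overlapped fully. Its log2 difference was -0.08 (SE 0.40, 95% interval -1.05 to 0.89). RT1-DMb stood at 0.982, 1.42 and 2.08 times RT1-DMa in PLLARS_US replicates 1 to 3, against 6.39, 9.01 and 1.45 times in PCL replicates 1 to 3. PCL replicate 3 thus had a ratio inside the PLLARS_US range. At the depth of these libraries the values of RT1-DMa stand for 6.34 to 39.8 fragments per kilobase in the PLLARS_US group and 11.5 to 31.7 in the PCL group, and those of RT1-DMb for 13.2 to 39.0 in the PLLARS_US group and 45.9 to 151 in the PCL group.

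The restraining pair was also at a low level. RT1-DOb, its beta chain, had 3.43, 7.89 and 2.96 FPKM in PLLARS_US replicates 1 to 3, against 5.23, 5.83 and 4.80 FPKM in PCL replicates 1 to 3, a pattern much like that of Ciita. RT1-DOa, its alpha chain, had 1.35, 6.11 and 2.57 FPKM in the PLLARS_US libraries, against 4.30, 1.36 and 2.19 FPKM in the PCL libraries. The log2 differences were -0.22 (SE 0.32, 95% interval -1.01 to 0.57) for RT1-DOb and 0.19 (SE 0.49, 95% interval -0.997 to 1.39) for RT1-DOa. The mean level of the RT1-DM pair minus that of the RT1-DO pair, in log2(FPKM + 1), was -0.94 ± 0.91 in the PLLARS_US group and -0.22 ± 0.14 in the PCL group (SD, n = 3 each). A two-sided exact permutation test gave p = 0.4, and PLLARS_US replicate 1, at 0.077, lay above the PCL libraries. The difference of -0.72 was -1.22 without PLLARS_US replicate 1, -0.35 without PLLARS_US replicate 2 and -1.31 without both PLLARS_US replicate 1 and PCL replicate 3.

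By level the genes ran, from highest to lowest mean over the 6 libraries, Cd74, RT1-Da, RT1-Ba, RT1-Db1, RT1-Bb, Ciita, RT1-DOb, RT1-DMb, RT1-DOa and RT1-DMa. Cd74 exceeded RT1-Da, and RT1-Da exceeded RT1-Ba, in every library. The order of RT1-Ba, RT1-Db1 and RT1-Bb, at means of 144, 98.1 and 90.7 FPKM, was not the same in all libraries. A wide gap then separated these 5 genes from the other 5, whose means ran between 1.37 FPKM (RT1-DMa) and 5.47 FPKM (Ciita) with ranges that overlapped between neighbours.

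**Figure D3:**
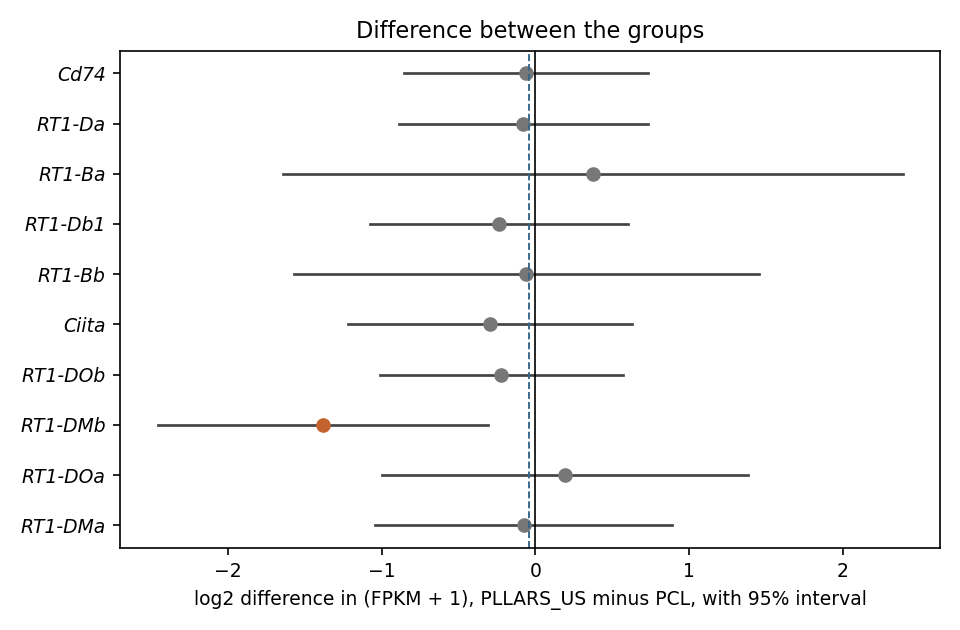
Difference in log2(FPKM + 1), PLLARS_US minus PCL, for each gene with its 95% interval from limma, with a solid line at 0 and a dashed line at the median of all genes tested (-0.04). The interval of RT1-DMb (orange, groups without overlap) lies below 0, and those of the other 9 genes (grey) include 0.

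Over the 10 genes, all of which passed the filter of a mean of at least 1 FPKM, 8 had a negative and 2 a positive log2 difference, with a median of -0.08. Quantile normalization turned RT1-DMa positive, and weighting the libraries by their quality turned RT1-Da and RT1-Bb positive. Of all 13720 genes tested, 57.0% had a negative difference and the median was -0.04. The limma fit called 0 of the 10 genes at an adjusted p under 0.05, where 0.00% of all genes were called and 960 genes (7.00%) had an unadjusted p under 0.05. Groups did not overlap in 1 of the 10 genes, RT1-DMb, against 14.4% of all genes in either direction. Of the 13720 genes, 1378 had all PLLARS_US values below all PCL values, as RT1-DMb did, and 594 had them above. The counts at an unadjusted p under 0.05 and without overlap, 1 gene each, lay near the shares of the whole table.

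In FPKM, the PLLARS_US libraries were the more widely spread ones for most of the 10 genes. The SD of FPKM was larger in the PLLARS_US group than in the PCL group for 9 of the 10, the exception being RT1-DMb. Of all tested genes, 56.4% had the larger SD in PLLARS_US. SDs were not compared on the log2 scale, where the count can differ. Several of the 10 genes moved together (r = 0.987 for Cd74 and RT1-Da over the 6 libraries), so the 9 are not separate observations. The extremes lay mostly in 2 libraries: PLLARS_US replicate 2 held the highest value of the 6 for 8 of the genes, and PLLARS_US replicate 3 held the lowest for 7. Without PLLARS_US replicate 2 all 10 genes had a negative difference, as did 60.8% of all genes. In that fit RT1-Da, RT1-Db1, Cd74, Ciita, RT1-DMb and RT1-DOb had both remaining PLLARS_US values below all PCL values, which held for 15.2% of all genes. RT1-Db1, Ciita, RT1-DMb and RT1-DOb had an unadjusted p under 0.05, where 3.79% of all genes were lower at that level. None passed, with a smallest limma adjusted p of 0.812 among the members. PLLARS_US replicate 2 was singled out for holding the highest value of 8 of the genes. Leaving it out lowers their differences by construction, so these counts cannot be read as an excess over the shares of all genes. Without PLLARS_US replicate 3, in contrast, 8 of the 10 genes had a positive log2 difference. The median in that fit was 0.23 for the 10 genes and -0.08 for all genes. PLLARS_US replicate 3 was likewise singled out, for holding the lowest value of 7 of the genes, and leaving it out raises their differences by construction. The direction thus depended on which of the 2 libraries was kept.

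Bulk RNA cannot tell fewer cells of a type from less RNA per cell. Sox10, a Schwann cell marker, was present in all libraries, at 33.4 to 90.7 FPKM in the PLLARS_US group and 31.6 to 74.9 FPKM in the PCL group. All 10 detected markers of macrophages and monocytes were above 0 in every library, with a summed level of 2065 to 10148 FPKM in the PLLARS_US group and 4063 to 7358 FPKM in the PCL group. Their mean in log2(FPKM + 1) peaked at 6.72 in PLLARS_US replicate 1 and was lowest, at 6.05, in PLLARS_US replicate 3. PLLARS_US replicate 2, where class II was highest, stood at 6.22. The ratio of Cd74 to the macrophage gene Cd68 was 1.99, 9.05 and 5.89 in PLLARS_US replicates 1 to 3, against 5.57, 4.22 and 1.91 in PCL replicates 1 to 3. Cd74 thus did not track Cd68, which is 1 of the 10 markers and does not stand for all of them. Cd68 was lowest in PLLARS_US replicate 3 (107 FPKM) and highest in PCL replicate 3 (529 FPKM). Cd163, another of the markers, was highest in the former (71.2 FPKM) and lowest in the latter (9.49 FPKM).

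Dendritic cell markers summed to 127 to 174 FPKM in the PLLARS_US group and 146 to 178 FPKM in the PCL group, with Cd209 at 0 in PCL replicate 3 and the other 9 markers above 0 everywhere. All 6 B cell markers were near 0, summing to 1.13 to 5.79 FPKM in the PLLARS_US group and 1.49 to 4.21 FPKM in the PCL group. Cd79a and Pax5 were listed at 0 in PLLARS_US replicate 1 and Pax5 in PLLARS_US replicate 3, while PLLARS_US replicate 2, the library highest in class II, also had the highest B cell sum. The 7 T cell markers were all above 0 and summed to 122 to 200.4 FPKM in the PLLARS_US group and 165 to 247 FPKM in the PCL group. Most of that sum was Cd4, which rat macrophages also express, at 90.6 to 155 FPKM in the PLLARS_US group and 116 to 213 FPKM in the PCL group. The mean of the 7 in log2(FPKM + 1), in which Cd4 weighs less, was 3.05, 3.64 and 3.68 in PLLARS_US replicates 1 to 3, against 3.62, 3.37 and 3.23 in PCL replicates 1 to 3. PCL replicate 3 thus had the highest sum but a low mean. Skeletal muscle markers ranged most, with all 6 above 0 and a sum of 13658, 21.0 and 2639 FPKM in PLLARS_US replicates 1 to 3, against 94.1, 1137 and 8386 FPKM in PCL replicates 1 to 3. The part of these makeup differences in the class II levels was not tested. Without the 2 libraries richest in muscle RNA, PLLARS_US replicate 1 and PCL replicate 3, the median log2 difference of the 9 genes still tested was -0.03, and RT1-Bb turned positive at 0.11.

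**Figure D4:**
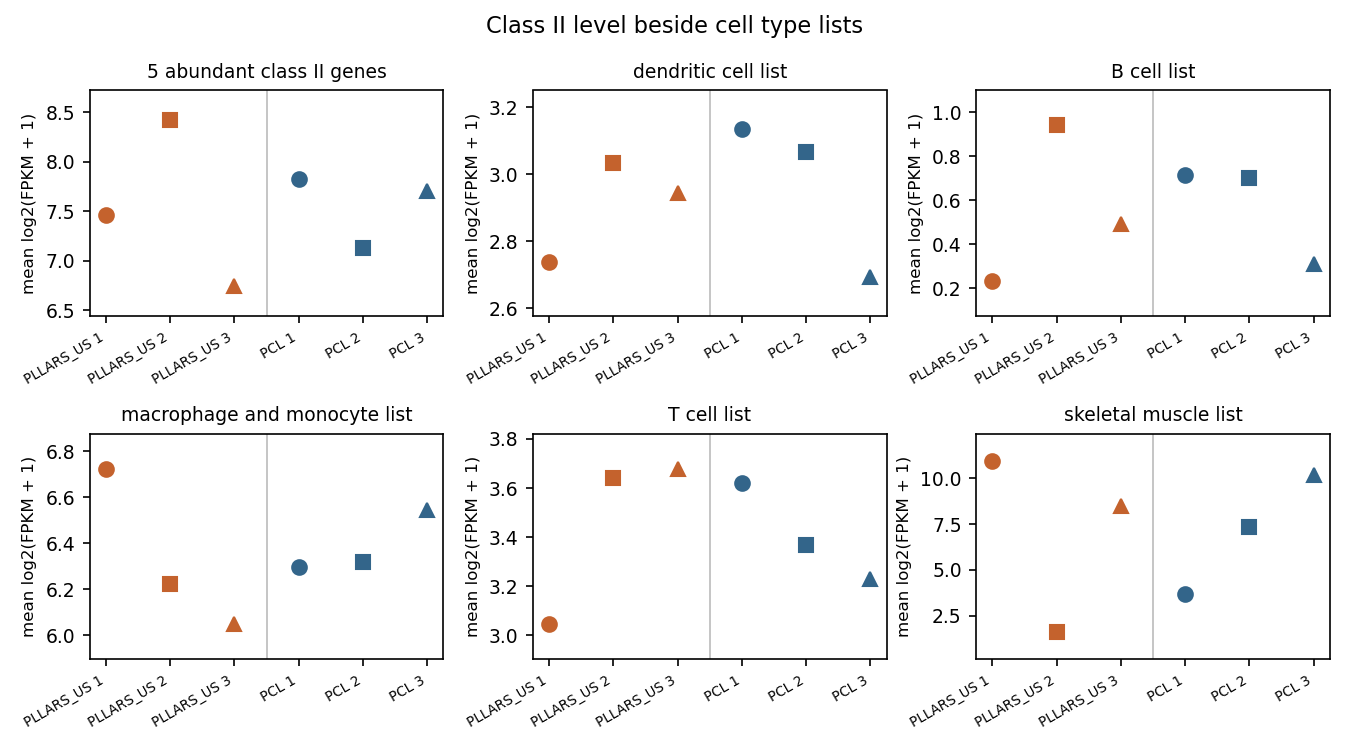
Mean log2(FPKM + 1) in each library of the 5 abundant class II genes and of 5 marker lists, PLLARS_US (orange) left of PCL (blue), each panel with its own vertical axis that does not start at 0. The class II mean is highest in PLLARS_US replicate 2 (8.42), which has the lowest skeletal muscle mean (1.58) and the highest B cell mean (0.943), and the macrophage mean is highest in PLLARS_US replicate 1 (6.72).

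The factors that bind the X and Y boxes showed no difference that passed. Of 6 tested, 2 were higher and 4 lower, with log2 differences from -0.28 to 0.21 and a smallest limma adjusted p of 0.807. Nfyc, Nfya and Nfyb, the subunits of the Y box factor NF-Y, averaged 23.4, 10.4 and 11.3 FPKM in the PLLARS_US group, against 24.9, 12.7 and 10.9 FPKM in the PCL group. Creb1, which binds next to the X box, averaged 17.7 FPKM in the PLLARS_US group and 15.1 FPKM in the PCL group. Rfxap, a subunit of the X box factor RFX, was listed at 0 in all PLLARS_US libraries and at 0 to 0.080 FPKM in the PCL libraries, while Rfx5 averaged 8.58 FPKM in the PLLARS_US group and 8.89 FPKM in the PCL group (both named after their values were seen). Rfxank, the other RFX subunit, also named after its values were seen, had 8.72, 6.87 and 7.01 FPKM in PLLARS_US replicates 1 to 3, against 9.45, 8.74 and 9.52 FPKM in PCL replicates 1 to 3. It was the 1 factor of the 6 whose groups did not overlap, against 14.4% of all genes in either direction. All PLLARS_US values lay below all PCL values in 1378 of the 13720 genes tested. Its log2 difference was -0.27, with a limma adjusted p of 0.807.

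Lysosomal proteases that degrade antigen and the invariant chain were at a high level in both groups. Of the 8 genes on that list, 0 reached an unadjusted limma p under 0.05, against 7.00% of all genes. Ctss, cathepsin S, which removes most of the invariant chain in antigen-presenting cells, had 837, 437 and 403 FPKM in PLLARS_US replicates 1 to 3, against 341, 347 and 426 FPKM in PCL replicates 1 to 3. Its values overlapped, with a log2 difference of 0.51. The cathepsins Ctsb, Ctsd and Ctsl averaged 1267, 532 and 416 FPKM in the PLLARS_US group, against 1484, 605 and 455 FPKM in the PCL group. Genes of class II turnover at the cell surface were all lower on average without passing. Marchf1, a ubiquitin ligase that marks class II for removal, averaged 7.71 FPKM in the PLLARS_US group and 7.90 FPKM in the PCL group. Its relative Marchf8 averaged 25.6 FPKM in the PLLARS_US group and 28.4 FPKM in the PCL group, and Cd83, which opposes Marchf1, averaged 19.8 FPKM in the PLLARS_US group and 25.9 FPKM in the PCL group.

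Costimulatory and checkpoint ligands gave 2 higher and 2 lower genes of 4 tested. Cd274, which encodes the checkpoint ligand PD-L1, had 24.1, 10.003 and 13.5 FPKM in PLLARS_US replicates 1 to 3, against 7.36, 9.36 and 7.22 FPKM in PCL replicates 1 to 3. All PLLARS_US values lay above all PCL values, which 4.33% of all genes did, and its limma adjusted p was 0.674. Cd86, a ligand that activates T cells, averaged 9.96 FPKM in the PLLARS_US group and 10.96 FPKM in the PCL group, and Cd40, a receptor through which T cells activate antigen-presenting cells, averaged 9.04 FPKM in the PLLARS_US group and 7.21 FPKM in the PCL group. Cd80, which shares its receptors with Cd86, averaged 1.01 FPKM in the PLLARS_US group and 1.40 FPKM in the PCL group.

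The interferon gamma pathway, the best known inducer of Ciita, had 9 tested genes, of which 6 were higher and 3 lower with a median log2 difference of 0.34. An unadjusted p under 0.05 with a higher level was reached by 3 of the 9, against 1.99% of all genes, and 0 of the 9 passed after adjustment. Irf1, a transcription factor induced by interferon gamma, had 25.6, 28.4 and 28.2 FPKM in PLLARS_US replicates 1 to 3, against 19.7, 22.9 and 19.9 FPKM in PCL replicates 1 to 3. Socs1, a feedback inhibitor of the pathway, averaged 4.63 FPKM in the PLLARS_US group and 2.89 FPKM in the PCL group. Neither Irf1 nor Socs1 overlapped between the groups, unlike Ciita, and their limma adjusted p were 0.588 and 0.639. They were among 4 of the 9 genes with all PLLARS_US values above all PCL values, against 4.33% of all genes. The list was chosen with earlier results of these data known. The receptor gene Ifngr1 averaged 101 FPKM in the PLLARS_US group and 115 FPKM in the PCL group, and the kinases Jak1 and Jak2 averaged 76.4 and 35.6 FPKM in the PLLARS_US group, against 72.9 and 35.9 FPKM in the PCL group. Ifng itself, named after its values were seen, was listed at 0, 0.36 and 0.38 FPKM in the PLLARS_US libraries and at 0, 0.12 and 0 FPKM in the PCL libraries.

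Of 4 tested genes around interleukins 4 and 10, all were lower on average. Il10, a cytokine that holds class II inside the cell in human monocytes, had 5.73, 0.363 and 1.22 FPKM in PLLARS_US replicates 1 to 3, against 6.41, 5.62 and 10.02 FPKM in PCL replicates 1 to 3. The groups overlapped by PLLARS_US replicate 1, and the log2 difference of -1.58 had a limma adjusted p of 0.674. The receptor genes Il4r and Il10ra averaged 22.8 and 12.3 FPKM in the PLLARS_US group, against 29.3 and 13.1 FPKM in the PCL group. Stat6, which relays interleukin 4 signals, averaged 28.7 FPKM in the PLLARS_US group and 28.9 FPKM in the PCL group.

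MHC class I, which presents peptides made inside the cell, gave 5 higher and 3 lower genes of 8 tested, with a median log2 difference of 0.24 beside -0.08 for the 10 class II genes. Tapbp, the peptide loading factor tapasin, had 62.4, 38.9 and 47.2 FPKM in PLLARS_US replicates 1 to 3, against 27.5, 29.1 and 29.7 FPKM in PCL replicates 1 to 3. Tap1, a chain of the peptide transporter, had 27.6, 23.7 and 23.2 FPKM in the PLLARS_US libraries, against 14.8, 15.3 and 19.2 FPKM in the PCL libraries. Their limma adjusted p were 0.496 and 0.503. Tapbp, Tap1 and the immunoproteasome gene Psmb9, 3 of the 8 genes, had all PLLARS_US values above all PCL values, against 4.33% of all genes. B2m, the light chain of class I, averaged 1661 FPKM in the PLLARS_US group and 1414 FPKM in the PCL group. Psmb9 averaged 30.6 FPKM in the PLLARS_US group and 25.1 FPKM in the PCL group. RT1-A2, a class I heavy chain, had 180.2, 50.8 and 149.7 FPKM in PLLARS_US replicates 1 to 3, against 111, 249 and 89.8 FPKM in PCL replicates 1 to 3. RT1-A2 was lowest in PLLARS_US replicate 2, where RT1-Ba was highest, and highest in PCL replicate 2, where RT1-Ba was lowest. RT1-A1, another class I heavy chain named after its values were seen, did not share that pattern. It was highest in PLLARS_US replicate 2 (34.8 FPKM) and lowest in PLLARS_US replicate 3 (13.6 FPKM). The difference between the class I and class II lists was not tested.

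The genes most like the 5 abundant class II genes were sought among 9994 other named genes with a mean of at least 5 FPKM, by Pearson correlation of log2(FPKM + 1) with the mean of the 5 over the 6 libraries. The highest were Srp19 (r = 0.976), Exosc6 (0.953), Ran (0.952), Tmem176a (0.947), LOC102551606 (0.938), Eif3i (0.924), Mthfd2 (0.914) and Mef2c (0.913). With 6 libraries and that many candidates, high values of r are found for some genes in any case, and these are given as a description. Their range was small beside that of class II: Srp19, a protein of the signal recognition particle, ran from 33.6 FPKM in PLLARS_US replicate 3 to 40.1 FPKM in PLLARS_US replicate 2. Tmem176a, the most abundant of the 8, had 166, 195 and 142 FPKM in PLLARS_US replicates 1 to 3, against 181, 159 and 189 FPKM in PCL replicates 1 to 3.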

How the data were processed

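Poly(A) RNA of 6 sciatic nerves was sequenced as paired reads, per the labels' protocols, and groups and replicate numbers were read from the sample titles. The authors deposited FPKM per gene model, which are not counts. The submitters' processing notes name StringTie 1.3.3b, HISAT2 2.1.0, FastQC 0.11.5 and DESeq 1.28.0, and a human genome build beside rat gene identifiers, so positions are printed as deposited with the build unsettled. A second sheet was read only to compare it, and held identical values in all 21028 rows. Whether strand was used in assigning reads is not given in the sources used here.

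Values were taken as log2(FPKM + 1) and genes with a mean of at least 1 FPKM were kept (13720 of 21028). Groups were compared with limma 3.58.1 in R 4.3.3, with a mean-variance trend, no covariate and Benjamini-Hochberg adjustment over all genes kept. The procedure was tested on simulated data. The balances between gene pairs were compared by two-sided exact permutation tests. Low values of 443 small gene models were whole multiples of 1 fragment (1111 of 1111 values under 50 fragments, within 0.03), which gave a depth of 15320000 to 16680000 fragments per library. Counts of the class II genes were not rebuilt. Replicate numbers were not used as a block.

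The 10 genes and all gene lists were chosen with earlier results of these data known. Named in the text are the 10 genes, the 4 most abundant members of each pathway list with any at an unadjusted p under 0.05, and the 8 genes most correlated with the abundant class II genes. Some genes that this rule selects are not reported here. Alternatives covered the pseudocount, filter, scaling, variance model, replicate block and left-out libraries.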

Additional observations from a re-analysis of the deposited data

How the results depend on the processing

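RT1-DMb stayed lower in PLLARS_US under all 17 alternatives in which it was tested, by -1.999 to -1.04 on the log2 scale. Its limma adjusted p ran from 0.055 (library quality weights) to 0.9999. Since its groups did not overlap, only a change of scaling could have turned its sign, so this agreement is no separate support. Ciita also had a negative difference under all 18 alternatives, of -0.71 to -0.083, with a limma adjusted p of 0.615 to 0.9999. These are refits of the same 6 libraries, in which the Ciita values of the groups overlapped. With library quality weights, 118 genes had an adjusted p under 0.05 and 2827 an unadjusted one, 4 of the 10 genes were higher, and RT1-Da (0.0022) and RT1-Bb (0.51) turned positive. RT1-Ba moved to 1.36 and RT1-DOa to 0.81, beyond their range over left-out libraries. The cause was not tested. Quantile normalization turned RT1-DMa to 0.048. A mean of at least 5 FPKM left 7 of the genes, with 1 higher, 0 at an unadjusted p under 0.05 and 0 without overlap, since RT1-DMb was not tested. The unadjusted calls split into 273 higher and 687 lower genes, against 414 higher and 520 lower with median-ratio scaling and 406 higher and 563 lower with quantile normalization.

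Leaving out libraries moved the adjusted calls over all genes between 0 and 3 (3 without PLLARS_US replicate 2) and the unadjusted calls between 571 and 1871 (1871 without PLLARS_US replicate 1 and PCL replicate 3). Of the 10 genes, 0 to 8 were higher, 0 to 4 had an unadjusted p under 0.05 and 1 to 6 did not overlap. In the same fits 4.17% to 13.7% of all genes had an unadjusted p under 0.05. The counts of 4 and 6 came from the fit without PLLARS_US replicate 2, a library singled out for its high class II values. In that fit 5.85% of all genes had an unadjusted p under 0.05, and 15.2% had PLLARS_US all below PCL. The log2 differences ran from -0.44 to 0.22 for RT1-Da, -0.60 to 0.011 for RT1-Db1, -0.36 to 0.99 for RT1-Ba and -0.61 to 0.47 for RT1-Bb. They ran from -0.38 to 0.24 for Cd74, -0.39 to 0.25 for RT1-DMa, -0.24 to 0.56 for RT1-DOa and -0.58 to 0.00081 for RT1-DOb. The balance of RT1-D over RT1-B ran from -0.64 to 0.32 and that of RT1-DM over RT1-DO from -1.31 to -0.35. The fits without PLLARS_US replicate 2 or 3 set most of these bounds.

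A replicate block gave 543 genes at an unadjusted p under 0.05 and changed no call among the 10 genes. Deviations from the group means correlated at -0.5, 0.146 and -0.32 between libraries with the same number. Between libraries with unlike numbers the correlations ran from -0.539 to 0.629. Deviations from a mean of 3 libraries offset each other, and tissue makeup also enters them, so these values cannot settle whether libraries were paired. The numbers were not taken as pairs.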
